A study of Mus musculus with 2 samples.

Results

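The metabotropic glutamate receptors Grm2 to Grm8 were examined in ureters of mouse embryos in which Tbx2 and Tbx3 were to be deleted from the ureteric mesenchyme. The 7 genes were taken by name from the gene annotation of the arrays, out of 31791 gene names, and were covered by 10 probes. They were selected on the ratio of Grm3 between genotypes, which was already known, so the ratios of all 7 genes between genotypes are given as a description, without a test. The study hybridised total RNA of whole ureters, from NMRI embryos at stage E18.5, to 2 arrays of Agilent's 2-colour design. Each array held RNA labelled cDKO in one dye and control RNA in the other.

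The RNA labelled cDKO came from embryos heterozygous for a Cre allele of Tbx18 (Tbx18(cre/+)), with floxed alleles only of both Tbx2 (fl/fl) and Tbx3 (fl/fl). Cre is thus made where Tbx18 is active, which includes the mesenchyme of the ureter. Controls were Tbx18(+/+) and carried at least 1 floxed allele each of Tbx2 and Tbx3, with the other allele not specified. Controls therefore had no Cre and kept the normal number of Tbx18 alleles. Replicate 1 was male with the cDKO RNA in the red dye, and replicate 2 was female with the dyes exchanged, so that sex, dye orientation and replicate cannot be told apart. The number of embryos behind each RNA is not stated in the labels. The p-values measure only the spread between these 2 arrays, taken mostly from all kept probes together (1 residual and 13.9 prior degrees of freedom). The SD of a gene therefore has little weight in its p-value.

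Metabotropic glutamate receptors are class C G protein-coupled receptors with a large extracellular domain that binds glutamate and a transmembrane domain that engages G proteins. Group I receptors such as Grm5 couple through Gq to phospholipase C and calcium release, whereas group II (Grm2 and Grm3) and group III (Grm4, Grm6, Grm7 and Grm8) couple through Gi/o and lower cyclic AMP. They are best known at synapses and on glia, and Grm3 is also a receptor for the neuropeptide N-acetylaspartylglutamate (NAAG).

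Each value below comes from a 60-base probe. The first 30 bases of the probes behind the largest differences (Grm3, Grm4 and Grm7) are shown, 5′ to 3′ as in the array design, together with the other probe of Grm4, which gave another result. No part is marked by capitals.
Grm3: acagtggcaatattaggtaacctttttcct
Grm4, transcript position 2472: tgagaccttcaatgaggccaagcccatcgg
Grm4, transcript position 2899: gttgggagcaggcacgagggagcccctgca
Grm7: actttcgttaatcttgctgcttatgtgtca
On mm9, the build of the array files, the Grm3 probe lies at chr5:9485369-9485428 on the minus strand. The Grm4 probes lie at chr17:27571527-27571586 and chr17:27559349-27559408 on the minus strand, 427 bases apart in the transcript and 12.178 kb apart in the genome. The Grm7 probe lies at chr6:111517083-111517142 on the plus strand. The files pair each probe with its gene and transcript, and the exon or UTR it falls in was not analysed here. As background, the sequence around position 2472 of Grm4 encodes part of the transmembrane domain, which is conserved among these receptors. Which receptor transcripts that probe can bind was not tested.

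The labels were checked before the ratios were read. Tbx2 was not lower in the RNA labelled cDKO (log2 ratio of cDKO over control, 1.04 for males and 0.44 for females). Tbx3 (0.78 and 0.55) and Tbx18 (0.81 and 0.81) were not lower either, and whether these probes lie within the floxed parts is not given in the sources used here. The Y-linked gene Ddx3y had a processed signal of 360 in the RNA labelled female cDKO, 12.6% of that in the male cDKO RNA, and was not well above background in the female control RNA. Xist was well above background in both female RNAs and in neither male RNA. Its probes had 918 and 1212 in the RNA labelled female cDKO and 957 and 1146 in the female control RNA. The RNA labelled female cDKO also stood apart by liver transcripts. For 8 hepatocyte genes chosen after their values were seen (Afp, Ahsg, Alb, Apoa1, Fga, Fgb, Fgg and Serpinc1), the log2 ratio was 2.68 to 3.82 on the female array and -0.78 to -0.04 on the male array. Every receptor value is therefore given for each array alone. Over the 4 RNAs, 72.1% to 81.6% of spots were well above background, the median ratio of signal to background was 12.1 to 17, and no receptor probe was saturated.

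Of the 7 receptors, 5 had a probe well above background in 1 genotype on both arrays and were kept (Grm2, Grm3, Grm4, Grm5 and Grm7). In all 4 RNAs, 4 of them were well above background (Grm2, Grm3, Grm4 and Grm7). Grm6 and Grm8 were not well above background in any RNA. Among the 5 kept receptors, 2 were at least 2-fold higher in the RNA labelled cDKO on both arrays, Grm3 and Grm4. Of 23419 genes tested, 1.14% were at least 2-fold different on both arrays, 0.41% higher and 0.726% lower. Nothing is read from that comparison, because the receptors were chosen with these ratios known.

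**Figure D1:**
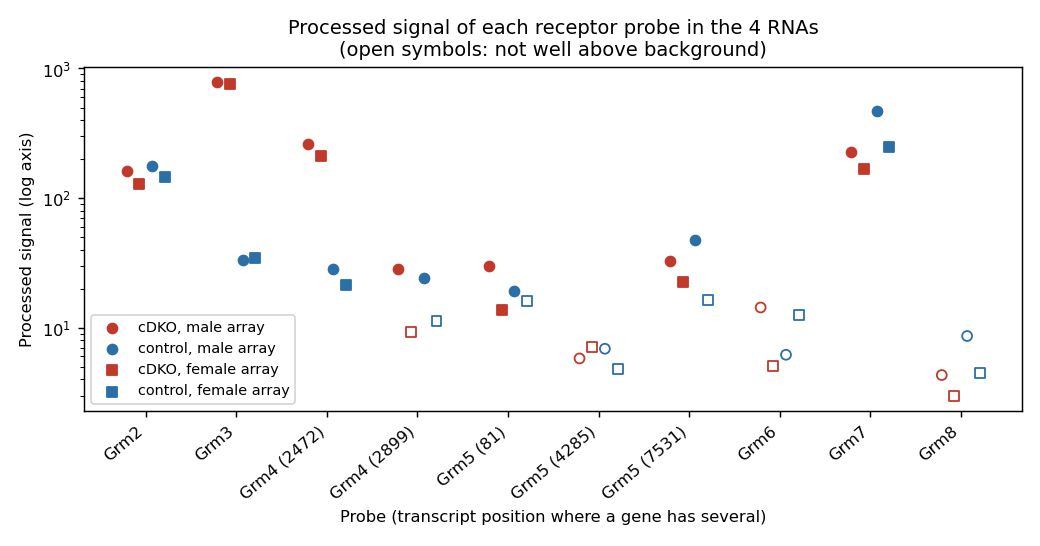
Processed signal (background-subtracted and dye-normalized, log axis) of the 10 receptor probes in the RNA labelled cDKO (red) and control RNA (blue) of the male array (circles) and the female array (squares), with open symbols where the signal was not well above background. The cDKO symbols of Grm3 and of the Grm4 probe at position 2472 lie above both controls, those of Grm7 lie below both controls, and every symbol of Grm6 and Grm8 is open.

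Grm3, a Gi/o-coupled group II receptor for glutamate and NAAG, was higher in the RNA labelled cDKO on both arrays. Its processed signal was 783 in male cDKO RNA and 33.6 in male control RNA. In the female RNAs it was 760 in cDKO and 34.3 in control. Processed signals were close between the arrays for the cDKO RNAs and for the controls, but they were not scaled between arrays. After background correction with normexp (offset 50) and loess normalization, the log2 ratio was 2.87 (male array) and 3.67 (female array), with a mean of 3.27 ± 0.56 (SD, n = 2), or 9.63-fold. In this setting 2 of 23419 genes had a higher mean ratio. Nothing is read from that rank, because Grm3 was chosen on its ratio.

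The size of the Grm3 difference varied with the processing. The control spots were 2.67 and 2.98 times their local background, against 27.7 and 47.5 times for the cDKO spots. The processed signals, which differ in both background subtraction and dye normalization, gave log2 ratios of 4.54 and 4.47, with a mean of 4.51 ± 0.051 (SD, n = 2), or 22.7-fold. Changing only the normexp offset, to 0, gave 3.61 ± 0.67 (SD, n = 2), or 12.2-fold. The fold is thus given as a range from 9.63 to 22.7 over these 3 settings.

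Grm2, the other group II receptor, showed no difference of that kind. Its processed signal was 161 in male cDKO and 177 in male control RNA, and 128 in female cDKO and 144 in female control RNA. The log2 ratio was -0.08 (male array) and -0.13 (female array), with a mean of -0.11 ± 0.034 (SD, n = 2). The cDKO value was the lower one on each array, but the cDKO and control values overlapped across arrays. The Grm2 probe lies at chr9:106547222-106547281 (mm9, minus strand).

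Grm4, a Gi/o-coupled group III receptor, gave different results with its 2 probes. At position 2472 the processed signal was 262 in male cDKO and 28.4 in male control RNA, and 212 in female cDKO and 21.5 in female control RNA. The log2 ratio at that position was 1.80 (male array) and 2.35 (female array), with a mean of 2.08 ± 0.39 (SD, n = 2), or 4.22-fold. The processed signals gave 3.20 and 3.30 there, with a mean of 3.25 ± 0.069 (SD, n = 2), or 9.53-fold.

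At position 2899 of Grm4 the signals were far closer. They were 28.5 in male cDKO and 24.2 in male control RNA, both well above background, and 9.31 in female cDKO and 11.3 in female control RNA, neither well above background. The log2 ratio of that probe was 0.07 (male array) and -0.02 (female array), and it did not pass the background filter. The higher signal in the RNA labelled cDKO was thus seen at 1 of the 2 Grm4 probes, and the transcript behind it is uncertain.

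Grm7, another group III receptor, was lower in the RNA labelled cDKO on both arrays. Its processed signal was 228 in male cDKO and 473 in male control RNA, and 166 in female cDKO and 246 in female control RNA. The log2 ratio was -0.82 (male array) and -0.44 (female array), with a mean of -0.63 ± 0.27 (SD, n = 2), or 1.54-fold lower. The processed signals gave 1.75-fold lower.

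The remaining group III receptors were not well above background. Grm6, known from the synapses of retinal bipolar cells, had processed signals of 14.3 and 5.09 in the male and female cDKO RNAs and 6.19 and 12.5 in the controls. Grm8 had 4.32 and 2.98 in the cDKO RNAs and 8.63 and 4.46 in the controls. None of these spots was well above background, so no ratio is given. Their probes lie at chr11:50679649-50679708 on the plus strand and chr6:27225612-27225671 on the minus strand (mm9).

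Grm5, the Gq-coupled member, was faint and showed no shared direction between arrays. The probe at transcript position 7531 (chr7:95282581-95282640, mm9) gave 32.9 in male cDKO and 47.5 in male control RNA, and 22.7 in female cDKO and 16.5 in female control RNA. Its log2 ratio was -0.19 (male array) and 0.19 (female array), with a mean of 0.0037 ± 0.27 (SD, n = 2). The probe at position 81 (chr7:94732759-94732818) gave 0.18 and -0.11 (mean 0.04 ± 0.20, SD, n = 2), from signals of 29.7 and 19.2 in the male and 13.7 and 16 in the female RNAs, cDKO before control. Both probes were well above background in 3 of the 4 RNAs, all but the female control. The probe at position 4285 (chr7:95279335-95279394) was not well above background in any RNA. The outer Grm5 probes are 549.822 kb apart in the genome, and neither end showed a difference beyond the spread between arrays.

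**Figure D2:**
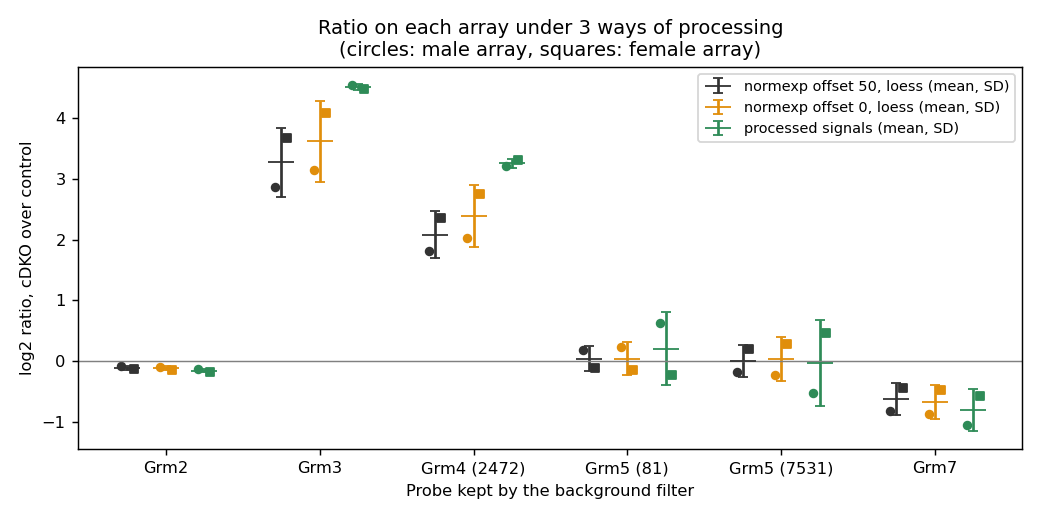
Log2 ratio of cDKO over control for the 6 receptor probes that passed the background filter, on the male (circles) and female (squares) array, with the mean (bar) and SD (whiskers) of the 2 arrays under 3 ways of processing. Grm3 and Grm4 (position 2472) are above 0 and Grm7 below 0 on both arrays in each setting, and the ratios of Grm3 and Grm4 are larger with the processed signals.

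The promoter of Grm3 is shown because the genotype concerns T-box factors, which bind DNA at T-box motifs. It is the stretch of 250 bases before the annotated start (RefSeq, GRCm38.p6, chr5:9725353-9725602, minus strand), with CG dinucleotides in capitals.
Grm3 promoter: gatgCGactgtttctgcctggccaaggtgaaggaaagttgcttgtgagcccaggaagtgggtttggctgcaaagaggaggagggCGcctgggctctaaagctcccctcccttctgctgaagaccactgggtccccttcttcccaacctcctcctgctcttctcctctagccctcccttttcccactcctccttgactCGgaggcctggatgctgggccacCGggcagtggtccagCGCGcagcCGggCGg
It holds 8 CG dinucleotides at 62.4% GC, beside medians of 6 and 52.4% over 32851 promoters of that length. The T-box motif AGGTGTGA, its core AGGTGTG and the shorter GGTGTG, each contained in the one before, were searched on both strands. They occur in 1.12%, 5.1% and 16.28% of those promoters and in none of the windows matched here for Grm2, Grm3, Grm6, Grm7 and Grm8. This says only that these letters are not in those windows.

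Genes around Grm3 on the chromosome are given as a description. Grm3 was chosen with its high ratio known, so nothing is read from their lower ratios. Within 1 Mb of the Grm3 probe (mm9), 14 kept probes of 12 genes gave mean log2 ratios from -0.28 to 0.36. Of these probes 0 were called by limma (Benjamini-Hochberg adjusted p under 0.05), and 2 had an unadjusted p under 0.05. Of all genes 4.45% were called, a share at which so few probes can easily hold no call. The nearest were 2 probes of Elapor2, a transmembrane protein gene, on the opposite strand at 4.99 and 4.80 kb, with 0.29 and 0.36. The multidrug transporter genes Abcb1a, Abcb1b and Abcb4 had 0.0037, 0.095 and 0.19. Crot, which encodes the peroxisomal carnitine octanoyltransferase, had -0.23, Tmem243 -0.17 and the transcription factor gene Dmtf1 -0.09. Rundc3b, at the far end of the window, had 0.36.

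**Figure D3:**
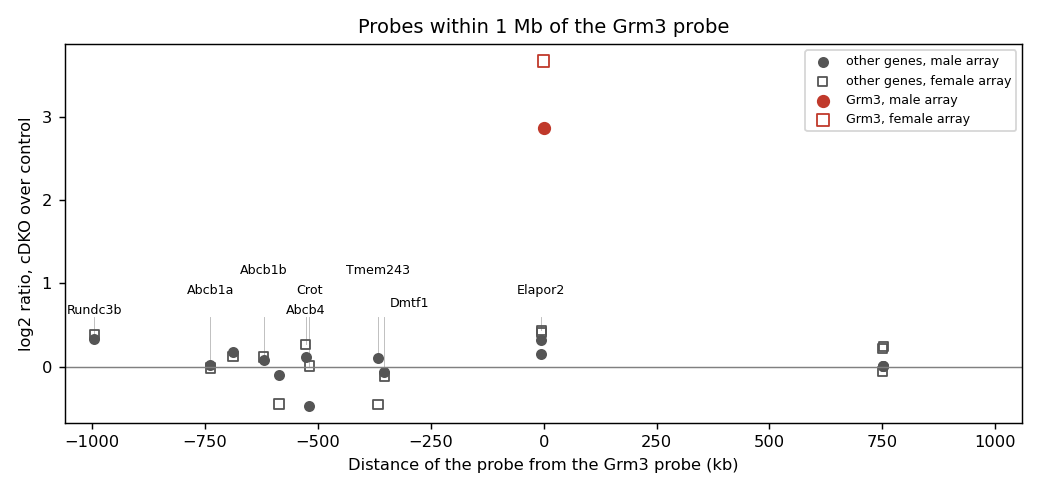
Log2 ratio of cDKO over control on the male array (filled circles) and the female array (open squares) for kept probes, by distance in kb from the Grm3 probe; genes with a symbol are named. Grm3 stands at 2.87 and 3.67, while the means of the other probes within 1 Mb lie between -0.28 and 0.36.

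The genes whose ratios on the 2 arrays were nearest to those of Grm3 were found by Euclidean distance in log2 units over the 2 ratios. None of those named lies on the chromosome of Grm3. Scgb1c1 and Cox8b lie on chromosome 7, Mup9 and Pou3f1 on chromosome 4 and Dkk1 on chromosome 19. Scgb1c1, a secretoglobin gene, was nearest at 0.333 (3.08 for males and 3.41 for females). Mup9, of a family of near-identical major urinary protein genes that the probe may not separate, followed at 0.435 (3.30 and 3.62). Cox8b, a subunit of cytochrome c oxidase, was at 0.679 (2.87 and 2.99). Dkk1, a secreted WNT antagonist, was at 0.876 (2.39 and 2.94) and Pou3f1, a POU homeobox factor, at 0.879 (3.16 and 2.84). With only 2 ratios per gene this likeness is a description.

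**Figure D4:**
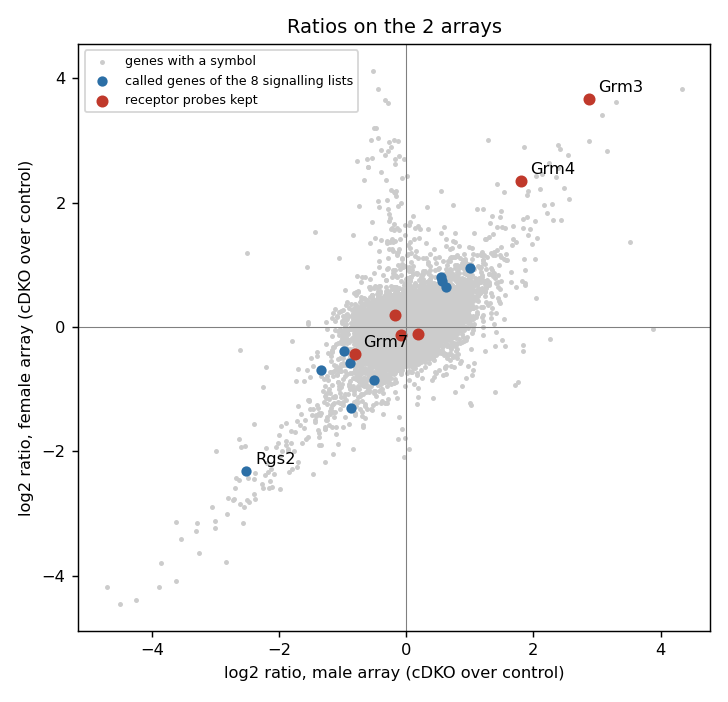
Log2 ratio of cDKO over control on the male array (horizontal) and the female array (vertical) for genes with a symbol (grey), the kept receptor probes (red) and the called genes of the 8 signalling lists (blue). Grm3 at 2.87 and 3.67 and Grm4 at 1.80 and 2.35 lie toward the upper right, Grm7 at -0.82 and -0.44 and Rgs2 at -2.52 and -2.32 lie to the lower left, and the grey points high on the female array alone include the Y-linked and hepatocyte genes.

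The other genes of glutamate signalling were read from 8 lists, as calls by limma with Benjamini-Hochberg adjustment at 0.05. These lists were chosen with earlier results of these data known, so the shares called are a description and nothing is read from them. Of 23419 genes, 4.45% were called (2.18% higher and 2.27% lower) and the median log2 ratio was 0.0045. Of 134 listed genes on the array, 114 were tested and 10 were called (8.77%), 4 higher and 6 lower, with a median of 0.04. Among the 114 tested list genes 1 was at least 2-fold different on both arrays, Rgs2, beside 1.14% of all genes.

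Genes that Gi/o-coupled receptors such as Grm3 and Grm4 act through were called in both directions. Of 22 tested genes of the Gi/o and adenylyl cyclase list, 2 rose and 2 fell (18.2%, beside 4.45% of all genes). The median log2 ratio was 0.17. With the processed signals 0 of the 22 were called, and nothing is read from the share. Adcy5, an adenylyl cyclase inhibited by Gi, fell in signal from 606 to 299 in the male and from 566 to 213 in the female RNAs (log2 ratio -1.09 ± 0.31, SD, n = 2; limma adjusted p = 0.00112). Gnaz, a G protein alpha subunit of the Gi class, had a log2 ratio of -0.68 ± 0.25 (SD, n = 2; limma adjusted p = 0.0296). The adenylyl cyclases Adcy1 and Adcy7 rose by 0.67 ± 0.18 (limma adjusted p = 0.0296) and 0.63 ± 0.015 (limma adjusted p = 0.0373) on the log2 scale.

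Genes of the Gq and calcium pathway, through which Grm5 signals, were called in the lower direction only. Of 12 tested genes, 3 fell and 0 rose (25%, beside 4.45% of all genes), and the median log2 ratio was -0.34. With the processed signals 0 of the 12 were called, and nothing is read from the share. Plcb4, a phospholipase C, had -1.34 (male array) and -0.69 (female array), with a mean of -1.01 ± 0.46 (SD, n = 2; limma adjusted p = 0.00343). The inositol trisphosphate receptor gene Itpr1 had -0.73 ± 0.22 (limma adjusted p = 0.0194), and Plcb1, a further phospholipase C, had -0.68 ± 0.42 (limma adjusted p = 0.0432).

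Of 17 tested genes for receptor desensitisation, 1 fell and 0 rose (5.88%, near the 4.45% of all genes), with a median of -0.09. Rgs2, a regulator of G protein signalling that acts mainly on Gq, had a signal of 14757 in male cDKO against 84533 in male control RNA, and 9426 against 47326 in the female RNAs. Its log2 ratio was -2.42 ± 0.15 (SD, n = 2; limma adjusted p = 1.74e-07), or 5.36-fold lower. Rgs11, of the same protein family, had -0.53 ± 0.19 (SD, n = 2; limma adjusted p = 0.103). The receptor kinase gene Grk3 was measured under that symbol and under its older one, Adrbk2. The brighter probe had -0.36 ± 0.14 (limma adjusted p = 0.309) and stood for the gene, and the probe named Adrbk2 had -0.63 ± 0.21 (limma adjusted p = 0.0443).

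Genes that handle the ligands of these receptors gave 1 call in each list (9.09% and 7.14%), beside 4.45% of all genes. In lists this short, 1 call is not far from that share. Of 11 tested glutamate transport genes, 1 rose, and the median was 0.21. It was Slc17a8, a vesicular glutamate transporter, with signals of 148 against 82.9 in the male and 119 against 62.2 in the female RNAs, cDKO before control (log2 ratio 0.65 ± 0.13, SD, n = 2; limma adjusted p = 0.0339). The amino acid transporter gene Slc1a4 had 0.39 ± 0.17 (limma adjusted p = 0.254). Of 14 tested genes of glutamate and NAAG metabolism, 1 rose, with a median of 0.09. It was Aspa, whose product cleaves N-acetylaspartate, with 559 against 248 in the male and 412 against 193 in the female RNAs (log2 ratio 0.98 ± 0.034, SD, n = 2; limma adjusted p = 0.00171). Naalad2, which encodes a NAAG peptidase, had -0.31 ± 0.48 (limma adjusted p = 0.467).

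Other receptors and their partners gave no call. Of all genes 4.45% were called, a share at which lists this short can easily hold none. Of 15 tested ionotropic glutamate receptor genes 0 were called by limma, 0 had an unadjusted p under 0.05, and the mean log2 ratios ran from -0.19 to 0.37. The largest were those of the AMPA receptor subunit Gria4 (0.37 ± 0.33, SD, n = 2; limma adjusted p = 0.33) and the kainate receptor subunit Grik3 (0.23 ± 0.81, SD, n = 2; limma adjusted p = 0.722), whose ratios were 0.80 (male array) and -0.35 (female array). Of 10 other class C receptors 0 were called and 2 had an unadjusted p under 0.05. The orphan receptors Gprc5c and Gprc5b had 0.38 ± 0.28 (limma adjusted p = 0.289) and 0.36 ± 0.16 (limma adjusted p = 0.315). Of 13 scaffolds and partners 0 were called and 1 had an unadjusted p under 0.05, with 0.36 ± 0.11 for Grasp (limma adjusted p = 0.311) and -0.35 ± 0.25 for Grip1 (limma adjusted p = 0.341).

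**Figure D5:**
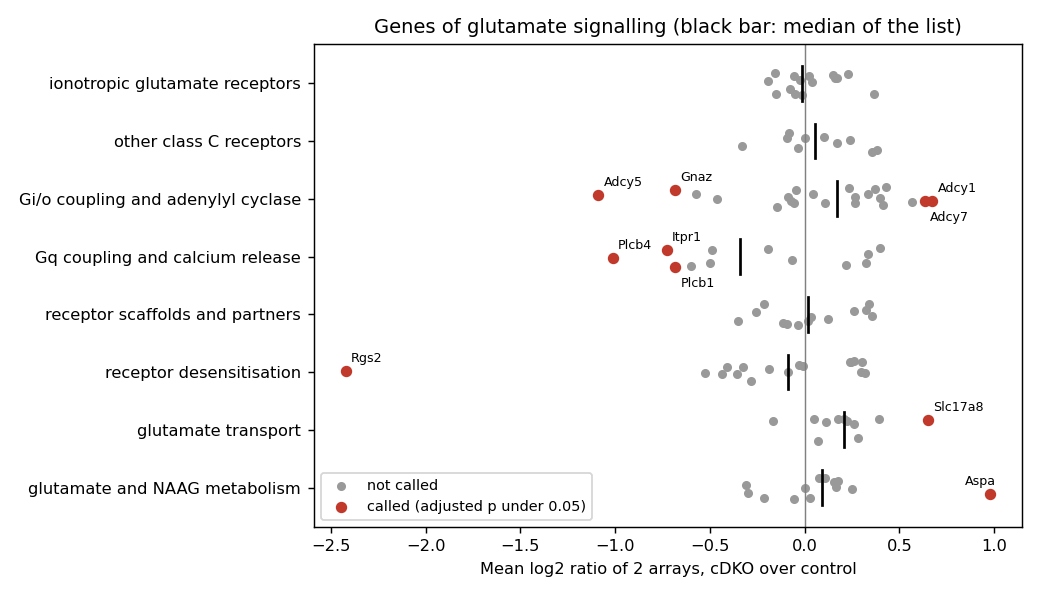
Mean log2 ratio of cDKO over control (n = 2 arrays) of the tested genes of 8 glutamate signalling lists, with called genes in red and the median of each list as a black bar. Called genes appear in 5 of the 8 lists, with Rgs2 at -2.42 and Aspa at 0.98 at the ends.

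These calls depended on the processing. With the mean of a gene's probes in place of the brightest probe, Slc17a8 (log2 ratio 0.31, limma adjusted p = 0.376), Gnaz (-0.47, limma adjusted p = 0.135) and Plcb1 (-0.55, limma adjusted p = 0.0642) were not called. With the processed signals 1 of the 114 list genes was called, Rgs2 (log2 ratio -2.42, limma adjusted p = 0.00702), and with the values deposited by the authors 0 were called, with 20 at an unadjusted p under 0.05.

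Markers of cell types moved with the genotype in the same RNAs, where 4.45% of all genes were called by limma. In whole tissue fewer cells of a type and less RNA per cell cannot be told apart. Of 6 smooth muscle markers 5 fell, with a median log2 ratio of -2.41, and their summed signal was 100162 in cDKO against 500285 in control in the male and 61501 against 296312 in the female RNAs. Acta2, Tagln and Myh11, the defining contractile genes, had -2.65 ± 0.23, -2.75 ± 0.037 and -2.64 ± 0.075 (SD, n = 2). All 5 fibroblast markers rose, with a median of 0.99 and summed signals of 392329 against 188414 and 353564 against 162227. Of 7 tested kidney markers 5 rose, led by Lhx1 (2.06 ± 0.13, SD, n = 2). The summed signals of all 10 kidney markers on the array, tested or not, were 8124 against 2938 and 4131 against 3269. Of 5 endothelial markers 2 rose, Plvap (0.97 ± 0.30, SD, n = 2) and Cdh5 (0.68 ± 0.37), with sums of 33158 against 23402 and 22177 against 16983. Of 4 red blood cell markers 1 rose, Slc4a1 (0.62 ± 0.017), and 4 had an unadjusted p under 0.05, with a median of 0.56 and sums of 113202 against 69930 and 97277 against 65204. Among 5 leukocyte markers and 6 tested adrenal and melanocyte markers 0 were called by limma, with 1 of each list at an unadjusted p under 0.05.

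Metabotropic receptors are best known in neurons and glia, and markers of these cells were present in every RNA. Of 10 autonomic neuron markers 0 were called by limma, beside 4.45% of all genes. Of these markers 2 had an unadjusted p under 0.05, and the median log2 ratio was 0.12. Their summed signal was 9393 in cDKO against 9491 in control in the male and 6709 against 7969 in the female RNAs. Of 7 tested Schwann cell and glial markers 1 rose, Fabp7 (0.63 ± 0.17, SD, n = 2; limma adjusted p = 0.0432). The sums of all 8 such markers on the array, tested or not, were 15035 against 11935 and 10667 against 9297. Of 8 urothelial markers 0 were called and 2 had an unadjusted p under 0.05, and all 8 were well above background in every RNA. The part of smooth muscle, fibroblasts, kidney, endothelium, blood, glia and liver RNA in the ratios of receptors and signalling genes was not tested.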

How the data were processed

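Spot values were made by Agilent's Feature Extraction program, release 10.7.3.1, per the file headers. The deposited mean spot and median background intensities were used, together with the deposited processed signal intensity, which that program had background-subtracted and dye-normalized. The authors' deposited log10 ratio (red over green) was not used. The deposited 0 or 1 flags mark spots well above background, saturated or outlying. Values in the table deposited by the authors are a score of unstated scale. Set against the scanner values it was the signed fold of cDKO over control processed signals after floors of 26.9 and 20.4, for 100% of 44397 values within 0.001 log2, with a median of 1.

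Of 44397 spots, 43020 were gene spots of 39429 probes. Intensities were corrected with normexp (offset 50) and then loess-normalized array by array in limma 3.58.1 (R 4.3.3), giving control and outlier spots (272 and 226) weight 0. Probes well above background in 1 genotype on both arrays were kept (29274), and the brightest kept probe stood for a gene. Symbols came from RefSeq (GRCm38.p6) by accession for 26412 probes and from the files for 13017, so a gene listed there under an older name can count more than once among all genes. In the signalling and marker lists such a gene (Grk3, also named Adrbk2) was counted once, by its brighter probe. The log2 ratio of cDKO over control was averaged over both arrays and tested against 0 (lmFit, eBayes, two-sided, Benjamini-Hochberg, 0.05), with 1 residual and 13.9 prior degrees of freedom. On simulated data for this comparison (4 sets of 29274 probes) the fit found 95 to 98 of 100 probes changed 2-fold and 100 of 100 changed 4-fold, and 8.33% to 19.2% of calls were false. The simulated probes were independent, with variances drawn from the fitted model and 100 changed probes of each size. These rates therefore need not hold for the real data.

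Named were all 7 receptors, up to 4 called genes of each signalling list (or the 2 largest ratios where fewer than 2 were called), the genes within 1 Mb of Grm3, the 5 genes nearest to it in ratio, and up to 3 moved members of a marker list. The receptors and lists were chosen with earlier results of these data known. The alternatives were the processed signals, offset 0, median centring, Aquantile, other filters and flags, the deposited table, other variance models, the mean of a gene's probes and each array alone.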

Additional observations from a re-analysis of the deposited data

How the results depend on the processing

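Grm3 kept its direction in every setting run, with a log2 ratio of 4.51 with the processed signals and with the deposited table, and 2.87 to 3.67 with 1 array alone. Grm4 (position 2472) ranged from 1.80 to 3.25 and Grm7 from -0.82 to -0.44, each with 1 direction. Of 7 receptors, 5 passed the background filter, and 7 did with the flag for a positive and significant signal. The 1042 called genes (511 higher, 531 lower) became 343 (134 higher, 209 lower) with the processed signals, 320 (163 and 157) with median centring, 1599 (936 higher) with an intensity trend, and 0 (0 and 0) with the deposited table, where 2434 had an unadjusted p under 0.05 by limma. The share of calls that were higher was 49.0% in the reported fit, 39.1% with the processed signals and 58.5% with the trend. The 10 called list genes became 1 with the processed signals, 1 with median centring and 0 with the deposited table (20 unadjusted). The 3 called genes of the Gq list became 0 with the processed signals, median centring and the deposited table (6, 1 and 5 unadjusted). The 4 of the Gi/o list became 0 in those settings (7, 3 and 8 unadjusted) and 2 without a filter. The cause of these losses was not tested. List genes at least 2-fold numbered 1 on both arrays (beside 1.14% of all genes), 3 with male RNA alone and 2 with female RNA alone. That count was added after the data were seen. Of 19 named list genes, 0 changed direction. Calls ended for 2 with offset 0 (Adcy7 and Plcb1), 3 without a filter (Gnaz, Adcy7 and Plcb1), 2 with the trend (Gnaz and Adcy1), 3 with the mean of a gene's probes, and 0 with robust eBayes, Aquantile and the filter on both channels, and Rgs11 passed with the trend alone. No paired analysis was possible because, beyond the within-array ratios, which already are the paired comparison of cDKO and control RNA by replicate, no term is left for a block. Calls with 1 array alone cannot be given, since no residual degree of freedom is left. Depth here is signal over background, which limits Grm5, Grm6, Grm8 and the control values of Grm3 and Grm4.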

Other observations

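The chromosomal surroundings of Grm4 and Grm7 were examined after their values had been seen. Within 1 Mb of the Grm4 probe at position 2472, 63 kept probes of 50 genes were measured, with mean log2 ratios from -0.73 to 1.07. Of the 63 probes 2 were called by limma, beside 4.45% of all genes, which were each counted by the brightest probe. The higher one was a probe of Scube3, a secreted signalling protein gene, at 1.07 ± 0.32 (SD, n = 2; limma adjusted p = 0.00133). The other Scube3 probe had 0.61 ± 0.47 (limma adjusted p = 0.0839). Within 1 Mb of the Grm7 probe, 8 probes of 7 genes were measured and 1 was called. It was Cav3, the muscle caveolin gene, at -2.34 ± 0.32 (SD, n = 2; limma adjusted p = 3.54e-07). Oxtr, the oxytocin receptor gene in the same window, had 0.61 (limma adjusted p = 0.0557).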
